A study of Mus musculus with 8 samples.

Results

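Solute carriers (SLC proteins) are the membrane proteins that move amino acids, sugars, ions, metals, vitamins, nucleotides and many metabolites across the plasma membrane and the membranes of organelles. The genes described here were all rows of the count table whose symbol is Slc followed by a number, a letter and a number, apart from Slc7a11, with at least 10 counts in at least 2 of the 8 libraries. This rule found 200 members among 30419 gene names. It sets a level only and uses no difference between groups.

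The number after Slc is a family, and families are grouped by sequence and in part by substrate, so that Slc2 holds the facilitative sugar transporters, Slc7 and Slc38 amino acid transporters, Slc25 the carriers of the inner mitochondrial membrane, Slc30 and Slc39 the zinc transporters and Slc35 the nucleotide sugar transporters of the Golgi and endoplasmic reticulum. Most are driven by the gradient of their substrate or are coupled to sodium, protons or a counter-substrate, whereas ATP-driven pumps are a separate class of genes. Fibroblasts in culture use them to take up glutamine, glucose and essential amino acids, to export lactate and to exchange metabolites between cytosol and mitochondria.

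RNA was measured by sequencing in mouse embryonic fibroblasts (MEFs) taken at E13.5 and kept for few passages, in 4 groups of 2 libraries that the labels letter A and B. The groups were mutant cells (Dino lox/lox) with 0.2 µg/mL doxorubicin for 8 h, mutant cells with vehicle, WT cells (Dino +/+) with 0.2 µg/mL doxorubicin for 8 h, and WT cells with vehicle; the vehicle groups are called controls. Dino is a long noncoding RNA gene next to Cdkn1a that p53 induces, the labels name no Cre, and doxorubicin is a topoisomerase poison that breaks DNA. The series asks which genes depend on Dino. Whether A and B were different cultures or embryos is not in the labels, and the p-values below may then reflect technical spread alone.

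Total counts ran from 25482805 to 33285171 per library, and the 200 members took 0.784% to 0.995% of them. Cdkn1a and Mdm2, which p53 activates, rose with doxorubicin in both genotypes, by 2.50 ± 0.10 and 2.91 ± 0.07 on the log2 scale (± SE of the fit) in mutant cells and by 2.46 ± 0.10 and 3.09 ± 0.07 in WT cells. The 9 fibroblast markers summed to between 3303 and 4058 CPM (counts scaled to the size of each library), most of it Col1a2 and Vim. In mutant cells 4 of the 9 fell and 1 rose, and in WT cells 4 fell and 2 rose. Among them, on the log2 scale, Pdgfra fell by 1.80 ± 0.10 in mutant and 1.90 ± 0.10 in WT cells, and Pdgfrb by 1.79 ± 0.14 and 1.49 ± 0.14. Dcn rose by 0.47 ± 0.08 in mutant and 0.49 ± 0.08 in WT cells, and Thy1 by 0.28 ± 0.08 in WT cells. Dcn and Thy1 were also called higher in mutant than in WT cells, with doxorubicin and in controls. Endothelial markers summed to 5.68 and 5.85 CPM in mutant cells with doxorubicin against 1.34 and 1.73 CPM in mutant controls, and to 11.1 and 6.63 CPM in WT cells with doxorubicin against 2.08 and 2.96 CPM in WT controls. Of their 3 tested genes Tek alone was called, higher by 3.38 ± 0.33 and 2.91 ± 0.26, and Pecam1 had 0 to 2 counts. Skeletal muscle markers summed to 2.49 to 2.96 CPM in mutant cells with doxorubicin against 3.66 to 4.80 CPM in mutant controls, and to 2.82 to 3.16 CPM in WT cells with doxorubicin against 4.84 to 4.91 CPM in WT controls. Most of these sums was Acta1, which fell by 1.02 ± 0.21 in mutant and 0.99 ± 0.19 in WT cells. Des was called higher in mutant cells, by 1.29 ± 0.47, and was not called in WT cells. Neural markers summed to at most 6.78 CPM in any library. Of their 2 tested genes, Sox2 fell by 1.61 ± 0.30 in mutant and 1.17 ± 0.35 in WT cells. It was also called higher in mutant than in WT controls, by 1.16 ± 0.27. Tubb3 rose by 0.87 ± 0.18 in WT cells and was not called in mutant cells. The part of these markers in the results was not tested. Epithelial markers stayed at or under 0.813 CPM and the 3 hemoglobin genes had no count. Macrophage markers summed to 31.4 to 35.7 CPM in mutant cells with doxorubicin against 27.1 to 27.6 CPM in mutant controls, and to 31.1 to 32.3 CPM in WT cells with doxorubicin against 20.6 to 21.8 CPM in WT controls, with Aif1 at 0 to 4 counts. The genotypes also differed in sex-linked RNA. Xist had 6269 to 14368 counts in mutant libraries against 7 to 12 in WT libraries, and the Y-linked Ddx3y had 1467 to 2183 against 13513 to 17441. Sex composition and genotype therefore cannot be told apart. In bulk RNA, fewer cells of a type and less RNA per cell cannot be told apart either.

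Of 356 symbols with this pattern, 156 fell below the minimum and 53 of these had no count in any library. Just outside the rule stood 7 genes with 1 library at the minimum, among them Slc2a4, with 6 and 11 counts in mutant cells with doxorubicin, 2 and 0 in mutant controls, 8 and 8 in WT cells with doxorubicin and 0 and 1 in WT controls. Just inside stood 6 genes with 2 libraries at the minimum, among them Slc9a9, with 7 and 6, 17 and 9, 7 and 3, and 4 and 12 counts in the same order of groups. At the other end 155 members reached the minimum in all 8 libraries. Of the remaining members, 15 had both libraries at the minimum in 1 group only, so that the group where such a member is high is what brought it in. The test covered 198 members, and Slc27a1 and Slc43a1 were too low for it. The members belong to 43 families, the largest being Slc25 with 34 members and Slc35 with 24.

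By counts the 10 leading members over the 8 libraries were Slc25a24, Slc25a17, Slc16a1, Slc39a6, Slc12a2, Slc38a4, Slc35a5, Slc31a1, Slc25a46 and Slc7a1, at means of 945 to 294 CPM. Levels between genes are compared only per kilobase of exon. On that scale Slc25a17, the peroxisomal carrier of CoA, FAD and NAD, led with 463 CPM per kb, followed by the mitochondrial ATP-Mg/phosphate carrier Slc25a24 with 276, the lactate transporter Slc16a1 with 153, the zinc importer Slc39a6 with 125 and the adenine nucleotide carrier Slc25a4 with 100.3 CPM per kb. The labels name 3' end sequencing beside a capture kit, and with 3' reads a division by length would not apply.

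Several promoters are shown because their genes moved in opposite directions under doxorubicin while holding, or lacking, the same short motif. They are stretches of the RefSeq promoter windows of build GRCm38.p6, 5' to 3' on the strand of the gene, with a motif in capitals. The windows run from 250 bases before to 50 bases after a start site and were found for 152 members (210 windows). The motifs searched on both strands were the C/EBP-ATF response element TGATGNAA, to which ATF4 binds, and the p53 half-site. A half-site was marked in Slc2a9, which rose, and in Slc2a13, which fell. The response element was marked in Slc23a3, which rose, and, as its reverse complement across the start site, beginning 4 bases before it, in the amino acid transporter Slc1a4, which fell. Slc19a2 rose and holds neither motif in the stretch shown.
Slc2a9 (chr5:38483486-38483585, minus strand): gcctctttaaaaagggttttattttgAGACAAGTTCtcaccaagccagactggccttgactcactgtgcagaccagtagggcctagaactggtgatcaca
Slc2a13 (chr15:91573362-91573461, minus strand): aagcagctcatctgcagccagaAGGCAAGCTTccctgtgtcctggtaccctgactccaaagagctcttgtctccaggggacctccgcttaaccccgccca
Slc23a3 (chr1:75133991-75134090, minus strand): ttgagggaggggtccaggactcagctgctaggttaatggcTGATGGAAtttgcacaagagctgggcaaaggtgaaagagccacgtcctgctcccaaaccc
Slc1a4 (chr11:20332704-20332813, minus strand): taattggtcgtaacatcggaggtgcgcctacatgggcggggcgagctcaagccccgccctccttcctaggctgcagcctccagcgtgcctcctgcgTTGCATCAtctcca
Slc19a2 (chr1:164248946-164249045, plus strand): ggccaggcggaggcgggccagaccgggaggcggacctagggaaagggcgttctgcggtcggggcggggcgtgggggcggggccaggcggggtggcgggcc

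The half-site stood in 4 of 72 windows (5.56%) of members that rose in WT cells and in 7 of 57 windows (12.3%) of members that fell. Members not called in WT cells held it in 9 of 77 windows (11.7%), close to those that fell. It stood in 10.5% of the 210 member windows and in 8.36% of all 32851 windows. TGATGNAA stood in 6 of the 210 member windows (2.86%) and in 3.97% of all windows. By WT response it stood in 2 of 72 windows of members that rose, 1 of 57 that fell and 3 of 77 not called. A full p53 site, taken as a pair of half-sites with a spacer of at most 13 bases, stood in 0 of the 210 member windows and in 24 of all windows (0.0731%). These matches are a description of letters in a short window and say nothing of sites elsewhere in a gene.

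Doxorubicin changed the RNA of most tested members in either genotype, in both directions. In mutant cells 117 of 198 tested members (59.1%) were called at an adjusted p under 0.05 in edgeR's quasi-likelihood test, 76 higher and 41 lower, against 54.2% of all 12255 genes tested (28.3% higher and 25.9% lower). In WT cells 122 members (61.6%) were called, 77 higher and 45 lower, against 57.4% of all genes (29.3% higher and 28.1% lower). The shares called were thus near those of all genes, with more of the calls among members upward. The median log2 fold change of the members was 0.18 in mutant and 0.24 in WT cells, and that of all genes tested was 0.01 in both. The average of both responses was called for 141 members, against 66.4% of all genes. At least 2-fold and called were 41 members higher and 13 lower in mutant cells, against 12.8% and 6.5% of all genes, and 36 higher and 15 lower in WT cells, against 13.3% and 7.52%. Among the 155 members at the minimum in all 8 libraries, 94 were called in mutant cells (56 higher and 38 lower) and 101 in WT cells (60 higher and 41 lower). The other members include some that entered through the group where they are high. The upward calls, 2-fold counts and medians over all 198 are therefore in part set by the membership rule. Medians and 2-fold counts of the 155 alone, and shares of all genes at the same minimum, were not computed.

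**Figure D1:**
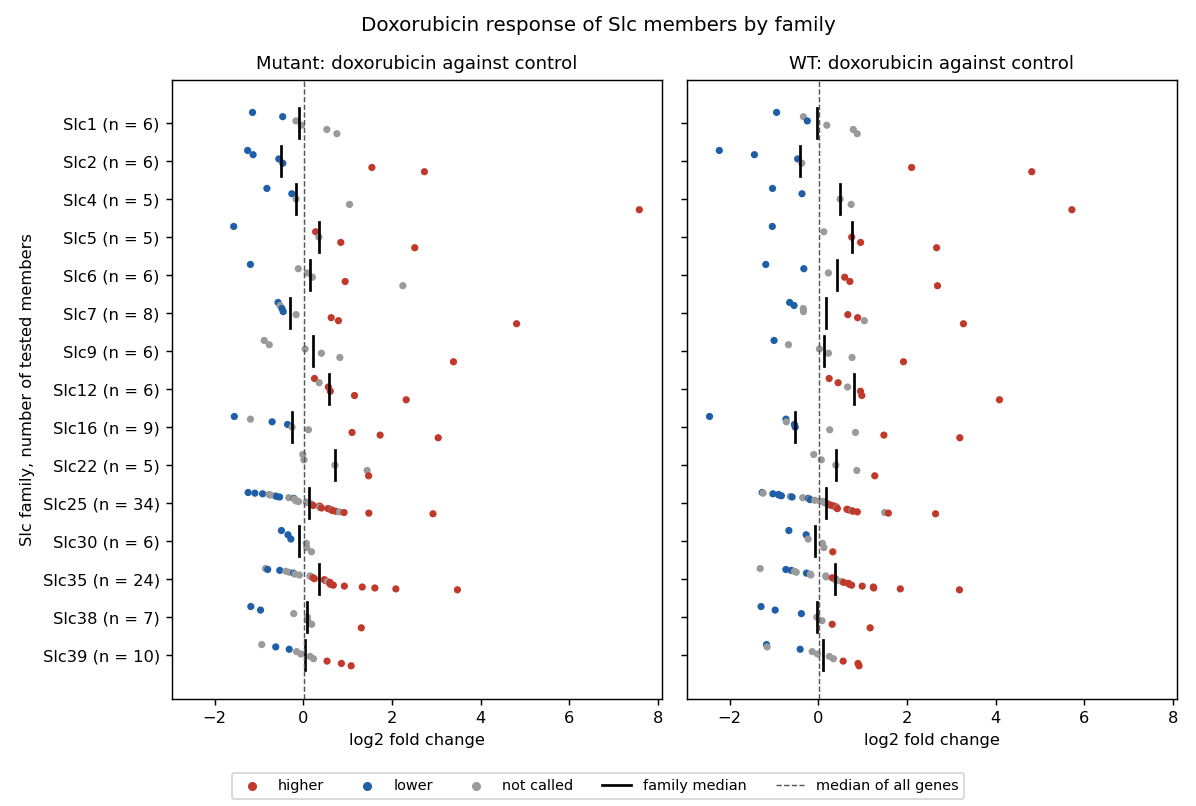
Log2 fold change of doxorubicin over control for each tested member of the 15 families with at least 5 members, in mutant cells (left) and WT cells (right); red points were called higher, blue points lower and grey points were not called, black bars are family medians and the dashed line is the median of all genes. Slc12 and Slc22 have no point called lower in either panel, whereas Slc1 has none called higher, and most families hold points on both sides.

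Beside every count by family, class or list that follows stand the shares of all genes. These were 28.3% higher and 25.9% lower in mutant cells, and 29.3% and 28.1% in WT cells. No difference from them was tested, and most families are small. By family, Slc12, the cation-chloride cotransporters, had 5 of 6 tested members higher and 0 lower in both genotypes. Slc1, the glutamate and neutral amino acid transporters, had 0 of 6 higher and 2 lower in both. The Slc35 family had 13 of 24 higher and 3 lower in mutant cells, and 12 higher and 3 lower in WT cells. Slc25 was split, with 11 of 34 higher and 6 lower in mutant cells, and 12 higher and 8 lower in WT cells. The glucose transporter family Slc2 had 2 of 6 higher and 4 lower in mutant cells, and 2 higher and 3 lower in WT cells. The monocarboxylate transporter family Slc16 had 3 of 9 higher and 3 lower in mutant cells, and 2 higher and 4 lower in WT cells.

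Among the vitamin, nucleoside and organic ion transporters a single gene carried most of the summed CPM. Counted as genes, 7 of 15 rose and 2 fell in mutant cells, and 6 rose and 3 fell in WT cells. The shares of all genes were 28.3% higher and 25.9% lower in mutant cells, and 29.3% and 28.1% in WT cells. Slc19a2, the high-affinity thiamine (vitamin B1) transporter, had 327 and 351 CPM in mutant cells with doxorubicin against 74.7 and 75.1 CPM in mutant controls. In WT cells Slc19a2 had 356 and 369 CPM with doxorubicin against 78.4 and 70.6 CPM in controls. The treated libraries of both genotypes lay far above all 4 controls, and its log2 fold change was 2.18 ± 0.07 in mutant cells (adjusted p = 7.58e-16) and 2.28 ± 0.07 in WT cells (adjusted p = 3.07e-16). The 15 members of the class summed to 369.8 and 391.9 CPM in mutant cells with doxorubicin against 106 and 103 CPM in mutant controls, and to 404 and 409 CPM in WT cells with doxorubicin against 110 and 103 CPM in WT controls, so most of the sum was Slc19a2. Slc29a3, the nucleoside transporter of lysosomes, had 9.04 and 7.91 CPM in mutant cells with doxorubicin against 3.94 and 2.92 CPM in mutant controls. In WT cells Slc29a3 had 10.2 and 8.54 CPM with doxorubicin against 3.42 and 2.85 CPM in controls, with no overlap between treated and control libraries. Members named for their largest changes had to show no overlap, so in such members its lack supports nothing, here or below. It rose by 1.30 ± 0.17 on the log2 scale in mutant cells (adjusted p = 1.08e-06) and by 1.58 ± 0.17 in WT cells (adjusted p = 4.45e-08). The ascorbate transporter Slc23a2 rose by 0.49 ± 0.11 and 0.42 ± 0.10, to 22.8 and 24.3 CPM in mutant and 22.5 and 27.6 CPM in WT cells, against controls of 16.1 to 18.8 CPM.

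Several other members of this class fell or were rare. Slc19a1, the reduced folate carrier, fell to 0.520 and 0.435 CPM in mutant cells with doxorubicin against 1.82 and 1.52 CPM in mutant controls, and to 0.364 and 0.313 CPM in WT cells with doxorubicin against 1.67 and 1.85 CPM in WT controls (log2 fold change -1.80 ± 0.33 in mutant cells, adjusted p = 8.54e-05, and -2.37 ± 0.33 in WT cells, adjusted p = 2.78e-06). It belongs to the same family as Slc19a2, so that a folate and a thiamine carrier moved in opposite directions. The nucleoside transporter Slc29a1 also fell, by -0.64 ± 0.26 and -0.62 ± 0.23. Slc29a2, a second plasma membrane nucleoside transporter, had 5 counts in mutant cells with doxorubicin against 20 in mutant controls, summed over 2 libraries, a ratio of 0.292 (exact 95% interval 0.0855 to 0.801) that did not pass the test (adjusted p = 0.0536). In WT cells its 4 counts against 50 gave a ratio of 0.0785 (0.0206 to 0.214) and passed it (adjusted p = 7.24e-05). The organic cation transporter Slc29a4 rose with 21 against 5 counts in mutant cells (ratio 4.90, 1.80 to 16.6) and 32 against 4 in WT cells (7.85, 2.78 to 30.6). Slc23a3, a sequence relative of the ascorbate transporters, rose in both genotypes too and had 33 counts with doxorubicin against 3 without in WT cells (10.8, 3.39 to 55). Such intervals, here and below, pool the 2 libraries of a group and leave out the spread between them. They cover counting error alone and are too narrow for a difference between groups. Because 2 reads can come from 1 molecule, even the counting error may be larger than they show.

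**Figure D2:**
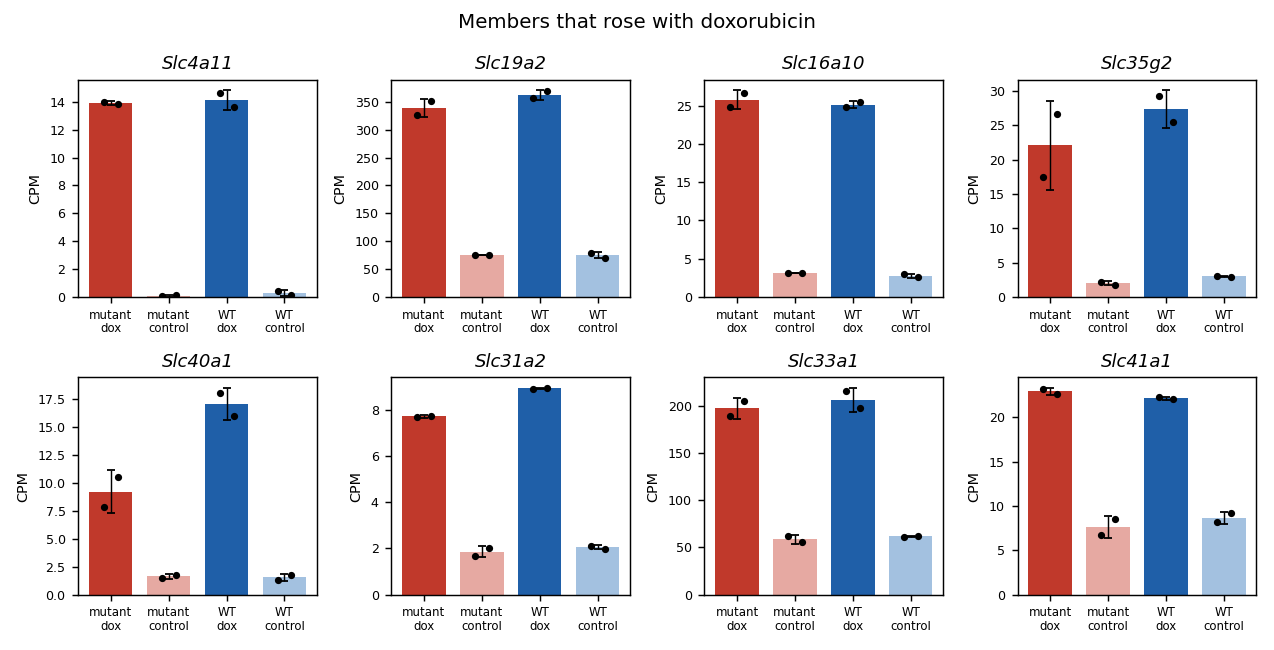
CPM of 8 members that rose with doxorubicin, 1 panel each, with groups in the order mutant with doxorubicin, mutant control, WT with doxorubicin and WT control; bars are means, error bars SD (n = 2) and points the libraries. In each panel every treated library lies above every control library, and Slc40a1 shows treated mutant libraries at 7.84 and 10.6 CPM against treated WT libraries at 18.1 and 16.02 CPM.

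Of the 23 metal transporters, 9 rose and 6 fell in mutant cells, and 10 rose and 5 fell in WT cells. Among all genes 28.3% rose and 25.9% fell in mutant cells, and 29.3% rose and 28.1% fell in WT cells. Slc40a1 is ferroportin, the cellular iron exporter, and had 7.84 and 10.6 CPM in mutant cells with doxorubicin against 1.48 and 1.80 CPM in mutant controls. In WT cells Slc40a1 had 18.1 and 16.02 CPM with doxorubicin against 1.34 and 1.79 CPM in controls. It rose in both genotypes, with a log2 fold change of 2.49 ± 0.19 in mutant cells (adjusted p = 3.88e-10) and 3.42 ± 0.18 in WT cells (adjusted p = 6.26e-13). Ferroportin is also a gene of macrophages, and the sum of the macrophage markers given above was higher in treated than in control libraries of both genotypes. Of the 6 tested, Cd14 alone was called in mutant cells, higher by 3.15 ± 0.39 on the log2 scale. In WT cells 4 rose, Cd14 by 2.89 ± 0.32 and Ptprc, Cd68 and Lyz2 by 0.34 to 0.79. The part of these markers in this result was not tested. Slc11a2, the importer of ferrous iron (DMT1), moved the other way, with 1.96 and 2.41 CPM in mutant cells with doxorubicin against 4.67 and 4.85 CPM in mutant controls. In WT cells Slc11a2 had 1.56 and 1.75 CPM with doxorubicin against 4.53 and 5.93 CPM in controls. It fell, with a log2 fold change of -1.12 ± 0.20 in mutant cells (adjusted p = 5.12e-05) and -1.67 ± 0.19 in WT cells (adjusted p = 2.23e-07), and no treated library reached a control. The mitochondrial iron importers Slc25a37 and Slc25a28 differed in direction. Slc25a37 rose by 0.37 ± 0.08 in mutant and 0.30 ± 0.08 in WT cells, and Slc25a28 fell by 1.09 ± 0.37 and 0.89 ± 0.37. Parts of Slc25a37 are nearly identical to transcripts of 3 other genes, so its reads may not all be its own. The heme transporter Slc48a1 rose by 0.76 ± 0.12 and 0.75 ± 0.12.

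For copper, the main importer Slc31a1 had 359.8 and 365 CPM in mutant cells with doxorubicin against 291 and 289 CPM in mutant controls. In WT cells Slc31a1 had 404 and 388 CPM with doxorubicin against 302 and 289.8 CPM in controls, a small rise with no overlap (log2 fold change 0.32 ± 0.06 in mutant cells, adjusted p = 2.24e-04, and 0.42 ± 0.06 in WT cells, adjusted p = 8.59e-06). The related Slc31a2 had fewer counts, with 7.68 and 7.75 CPM in mutant cells with doxorubicin against 1.68 and 2.03 CPM in mutant controls. In WT cells Slc31a2 had 8.91 and 8.95 CPM with doxorubicin against 2.12 and 2.00 CPM in controls. Its rise was over 4-fold in both genotypes, with a log2 fold change of 2.05 ± 0.17 in mutant cells (adjusted p = 9.55e-10) and 2.12 ± 0.16 in WT cells (adjusted p = 2.11e-10). Magnesium transporters rose as a pair. Slc41a1 had 23.2 and 22.6 CPM in mutant cells with doxorubicin against 6.72 and 8.47 CPM in mutant controls. In WT cells Slc41a1 had 22.3 and 22.03 CPM with doxorubicin against 8.21 and 9.16 CPM in controls. It rose by 1.59 ± 0.12 in mutant and 1.35 ± 0.11 in WT cells, and Slc41a2 rose by 1.02 ± 0.09 and 1.12 ± 0.09.

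Zinc transporters did not move as a block. In the importer family Slc39, 3 of 10 members rose and 2 fell in each genotype. Slc39a6, the member with the most counts, had 626 and 631 CPM in mutant cells with doxorubicin against 358 and 336 CPM in mutant controls. In WT cells Slc39a6 had 632 and 626 CPM with doxorubicin against 345 and 319.7 CPM in controls, and its log2 fold change was 0.86 ± 0.07 in mutant cells (adjusted p = 4.30e-10) and 0.92 ± 0.07 in WT cells (adjusted p = 1.23e-10). Slc39a7, which releases zinc from the endoplasmic reticulum, rose by 1.08 ± 0.10 and 0.90 ± 0.10, although it shares near-identical transcript sequence with Gm20427. Slc39a14, which also carries iron, rose by 0.54 ± 0.11 and 0.56 ± 0.11. Slc39a1 and Slc39a11 fell. In the exporter family Slc30, 0 of 6 rose and 3 fell in mutant cells, and 1 rose and 2 fell in WT cells, with changes of at most 0.66 ± 0.14 on the log2 scale among the called (Slc30a6 in WT cells).

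Summed over the class, amino acid transporter RNA was lower with doxorubicin. The 41 members of this class summed to 1116 and 1130 CPM in mutant cells with doxorubicin against 1475 and 1426 CPM in mutant controls, and to 1049 and 1172 CPM in WT cells with doxorubicin against 1583 and 1481 CPM in WT controls. Counted as genes, however, 11 of 40 tested rose and 10 fell in mutant cells, and 12 rose and 11 fell in WT cells. The shares of all genes were 28.3% higher and 25.9% lower in mutant cells, and 29.3% and 28.1% in WT cells. The sodium-coupled glutamine transporters Slc38a1 and Slc38a2 were among the stronger falls. Slc38a1 had 49.9 and 44.9 CPM in mutant cells with doxorubicin against 111 and 105 CPM in mutant controls. In WT cells Slc38a1 had 44.4 and 46.8 CPM with doxorubicin against 114 and 109 CPM in controls, and its log2 fold change was -1.19 ± 0.08 in mutant cells (adjusted p = 3.94e-11) and -1.29 ± 0.08 in WT cells (adjusted p = 7.22e-12). Slc38a2 had 91.9 and 91.8 CPM in mutant cells with doxorubicin against 184 and 175 CPM in mutant controls. In WT cells Slc38a2 had 87.04 and 82.8 CPM with doxorubicin against 171 and 162 CPM in controls, and its log2 fold change was -0.97 ± 0.07 in mutant cells (adjusted p = 1.61e-10) and -0.97 ± 0.07 in WT cells (adjusted p = 1.14e-10). Treated and control libraries of these genes stood well apart. Slc38a4, the member of its family with the most counts, had 351 and 375 CPM in mutant cells with doxorubicin against 431 and 413 CPM in mutant controls. In WT cells Slc38a4 had 292 and 420 CPM with doxorubicin against 492 and 436 CPM in controls. It was called lower in WT cells (log2 fold change -0.38 ± 0.11, adjusted p = 0.00432) and not in mutant cells (adjusted p = 0.0944). The WT call was lost without treated library A (-0.14) or control library A (-0.30), and DESeq2 did not make it (log2 fold change -0.38, adjusted p = 0.101).

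The 9 amino acid transporters often listed as ATF4 targets, which cells raise when amino acids run short, did not rise as a group. Of the 8 tested, 1 was higher and 4 lower in mutant cells (median log2 fold change -0.47), and 1 higher and 3 lower in WT cells (median -0.34). Among all genes 28.3% were higher and 25.9% lower in mutant cells, and 29.3% and 28.1% in WT cells. The list was drawn up with earlier results of these data known. Slc1a4, a carrier of alanine, serine and cysteine whose promoter stretch is shown above, had 3.68 and 4.07 CPM in mutant cells with doxorubicin against 8.75 and 8.44 CPM in mutant controls. In WT cells Slc1a4 had 4.41 and 4.22 CPM with doxorubicin against 8.70 and 7.92 CPM in controls, and its log2 fold change was -1.15 ± 0.14 in mutant cells (adjusted p = 7.08e-07) and -0.94 ± 0.14 in WT cells (adjusted p = 5.06e-06). Slc7a1, the cationic amino acid transporter, had 239 and 235 CPM in mutant cells with doxorubicin against 337 and 326 CPM in mutant controls. In WT cells Slc7a1 had 259.9 and 234 CPM with doxorubicin against 370 and 352 CPM in controls, with a log2 fold change of -0.48 ± 0.07 in mutant cells (adjusted p = 4.10e-06) and -0.55 ± 0.07 in WT cells (adjusted p = 6.21e-07). Slc38a2 was the third that fell in both genotypes. The essential amino acid exchanger Slc7a5 had 7.92 and 5.85 CPM in mutant cells with doxorubicin against 9.78 and 9.08 CPM in mutant controls. In WT cells Slc7a5 had 6.09 and 6.23 CPM with doxorubicin against 7.58 and 7.95 CPM in controls. It was called lower in mutant cells (log2 fold change -0.45 ± 0.14, adjusted p = 0.0104) and missed the threshold in WT cells (log2 fold change -0.34 ± 0.14, adjusted p = 0.0505), where leaving out either treated mutant library brought its adjusted p under 0.05 at -0.33. Its partner chain Slc3a2 was not called in either genotype (-0.15 ± 0.11 and -0.19 ± 0.11), nor were Slc1a5 (-0.04 ± 0.14 and 0.19 ± 0.13) and Slc7a3 (-0.53 ± 0.26 and -0.34 ± 0.24). The glycine transporter Slc6a9 was the exception and rose, by 0.94 ± 0.23 in mutant and 0.59 ± 0.23 in WT cells. In WT cells its call was lost without control library B (0.46) or treated library B (0.45). Ccdc24 and Gm17114 overlap its exons on the opposite strand, so its reads may not all be its own. Slc43a1, with 3 to 10 counts per library, was not tested. Slc7a11, the cystine importer left out of the members, was also lower in both genotypes, at 0.61 ± 0.16 and 0.46 ± 0.16 below control on the log2 scale.

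**Figure D3:**
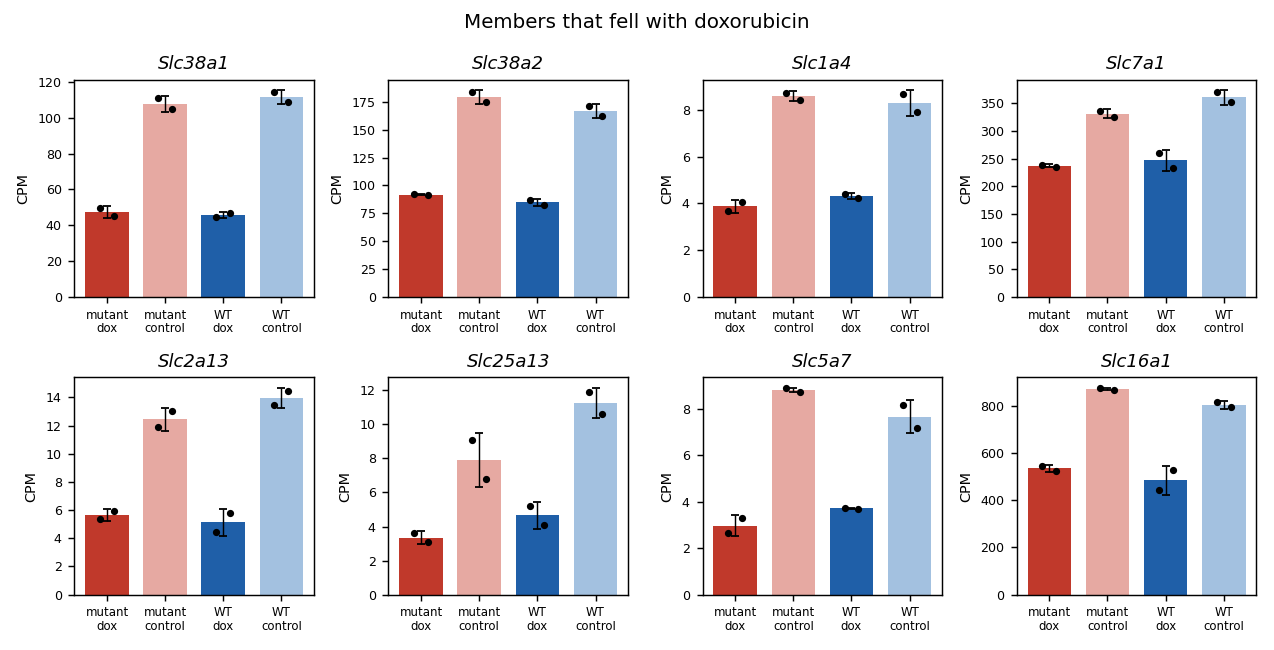
CPM of 8 members that fell with doxorubicin, drawn as in the plot of rising members, with bars for means, error bars for SD (n = 2) and points for libraries. In every panel the 4 treated libraries lie below the 4 control libraries, and the lower level is seen both for members with many counts such as Slc16a1 and for those with few such as Slc1a4 and Slc5a7.

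Several rarer amino acid transporters rose. Slc43a3, a purine base transporter by function despite its family, had 10.7 and 12.2 CPM in mutant cells with doxorubicin against 4.56 and 4.51 CPM in mutant controls, and 11.5 and 11.1 CPM in WT cells with doxorubicin against 4.72 and 4.20 CPM in WT controls, rises of 1.33 ± 0.13 and 1.34 ± 0.13 on the log2 scale. Slc38a6 rose by 1.31 ± 0.17 and 1.17 ± 0.16, the opposite of Slc38a1 and Slc38a2 in its own family, but its sequence is nearly identical to parts of transcripts of other genes and its reads may not be its own. The peptide transporter Slc15a2 rose by 0.76 ± 0.22 and 0.56 ± 0.23. Slc7a2, a cationic amino acid transporter like Slc7a1, rose where Slc7a1 fell, with 7.92 and 8.89 CPM in mutant cells with doxorubicin against 4.73 and 6.13 CPM in mutant controls. In WT cells Slc7a2 had 13.9 and 10.2 CPM with doxorubicin against 7.39 and 7.75 CPM in controls (log2 fold change 0.63 ± 0.16 in mutant cells, adjusted p = 0.00262, and 0.67 ± 0.15 in WT cells, adjusted p = 6.29e-04).

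At very low counts, Slc18a1, a vesicular monoamine transporter, rose in both genotypes, by 2.53 ± 0.41 and 2.17 ± 0.43, and Slc17a6, a vesicular glutamate transporter, fell, with 6 counts against 58 in mutant cells (ratio 0.121, 0.0425 to 0.279) and 4 against 46 in WT cells (0.0853, 0.0223 to 0.234). The X-linked Slc6a14, a broad amino acid transporter, differed between replicate libraries. Libraries A and B had 13 and 0 counts in mutant cells with doxorubicin against 2 and 1 in mutant controls, and 2 and 26 in WT cells with doxorubicin against 2 and 2 in WT controls. It was called in WT cells (log2 fold change 2.69 ± 1.07, adjusted p = 0.0379) and not in mutant cells (adjusted p = 0.157). Without treated WT library B its log2 fold change in WT cells was 0.0096, and the call was also lost without either WT control library (2.84 without A and 2.52 without B).

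Among the sugar and monocarboxylate transporters 10 of 26 rose and 8 fell in each genotype, with Slc16a1, the member of the class with the most counts, among those that fell. The shares of all genes were 28.3% higher and 25.9% lower in mutant cells, and 29.3% and 28.1% in WT cells. Slc16a1 (MCT1), which carries lactate and pyruvate with protons, had 546 and 526 CPM in mutant cells with doxorubicin against 877 and 871 CPM in mutant controls. In WT cells Slc16a1 had 442 and 529 CPM with doxorubicin against 818 and 795 CPM in controls, and its log2 fold change was -0.70 ± 0.07 in mutant cells (adjusted p = 5.69e-08) and -0.73 ± 0.07 in WT cells (adjusted p = 2.88e-08). Slc2a1 (GLUT1), the main glucose importer of cultured fibroblasts, had 74.8 and 72.2 CPM in mutant cells with doxorubicin against 107 and 108 CPM in mutant controls. In WT cells Slc2a1 had 82.96 and 88.9 CPM with doxorubicin against 120.1 and 117 CPM in controls, with a log2 fold change of -0.55 ± 0.07 in mutant cells (adjusted p = 1.10e-06) and -0.47 ± 0.07 in WT cells (adjusted p = 8.05e-06). Neither gene showed an overlap between treated and control libraries. Slc16a3 (MCT4), the lactate exporter of glycolytic cells, was rare, with 3 to 23 counts per library, and was not called in either genotype (-1.19 ± 0.74 and -0.72 ± 0.54). Slc2a13, the proton-coupled myo-inositol transporter, had 5.36 and 5.97 CPM in mutant cells with doxorubicin against 11.9 and 13.01 CPM in mutant controls. In WT cells Slc2a13 had 4.44 and 5.82 CPM with doxorubicin against 13.4 and 14.5 CPM in controls, and its log2 fold change was -1.13 ± 0.14 in mutant cells (adjusted p = 4.63e-07) and -1.44 ± 0.13 in WT cells (adjusted p = 7.70e-09). The sodium-coupled myo-inositol transporter Slc5a3 was higher in mutant cells with doxorubicin (0.28 ± 0.09, adjusted p = 0.0163) and not called in WT cells (0.12 ± 0.09). Its exons overlap Mrps6 on the same strand, and reads of the 2 genes may not be separable.

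Slc16a10, a carrier of aromatic amino acids placed in the monocarboxylate family, had 24.9 and 26.7 CPM in mutant cells with doxorubicin against 3.12 and 3.12 CPM in mutant controls. In WT cells Slc16a10 had 24.8 and 25.5 CPM with doxorubicin against 2.94 and 2.58 CPM in controls. All 4 treated libraries lay close together and far above the 4 controls, and its log2 fold change was 3.04 ± 0.12 in mutant cells (adjusted p = 9.18e-15) and 3.19 ± 0.12 in WT cells (adjusted p = 4.61e-15). Slc37a2, a sugar phosphate exchanger of the endoplasmic reticulum known in macrophages, rose by 2.96 ± 0.31 in mutant and 3.72 ± 0.31 in WT cells. The sum of the macrophage markers given above was higher in these libraries as well, and the part of these markers was not tested. Slc2a9, the urate transporter whose promoter stretch is shown above, had 29 and 35 counts in mutant cells with doxorubicin against 8 and 3 in mutant controls (log2 fold change 2.73 ± 0.50, adjusted p = 7.78e-05). In WT cells it had 43 and 51 counts with doxorubicin against 3 and 0 in controls, a ratio of 30.8 with an exact 95% interval of 10.2 to 152. Slc5a12, a sodium-coupled lactate transporter, rose by 2.52 ± 0.40 and 2.67 ± 0.48 at no more than 2.12 CPM. Slc5a7, the high-affinity choline transporter known from cholinergic neurons, belongs to the same family and fell, with 2.64 and 3.28 CPM in mutant cells with doxorubicin against 8.88 and 8.74 CPM in mutant controls. In WT cells Slc5a7 had 3.74 and 3.69 CPM with doxorubicin against 8.17 and 7.16 CPM in controls (log2 fold change -1.57 ± 0.16 in mutant cells, adjusted p = 2.50e-08, and -1.04 ± 0.15 in WT cells, adjusted p = 3.64e-06).

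Among carriers of ions the widest change was in a gene near silent in controls. Slc4a11, a proton and ammonia transporter known from the corneal endothelium, had 350 and 350 counts in libraries A and B of mutant cells with doxorubicin against 1 and 3 in mutant controls, a ratio of 204 (exact 95% interval 79.4 to 751). It had 442 and 436 counts in WT cells with doxorubicin against 12 and 4 in WT controls (log2 fold change 5.72 ± 0.25, adjusted p = 3.45e-14). All treated libraries lay between 13.6 and 14.6 CPM and no control exceeded 0.446 CPM. Its family members Slc4a4, a sodium bicarbonate cotransporter, and Slc4a7 fell. Slc4a4 had 41.5 and 33.5 CPM in mutant cells with doxorubicin against 68.9 and 63.6 CPM in mutant controls. In WT cells Slc4a4 had 38.1 and 44.7 CPM with doxorubicin against 89.3 and 80.4 CPM in controls, and its log2 fold change was -0.82 ± 0.10 in mutant cells (adjusted p = 4.79e-07) and -1.03 ± 0.10 in WT cells (adjusted p = 1.06e-08). The sodium-calcium exchanger Slc8a1 had 49.5 and 43.9 CPM in mutant cells with doxorubicin against 81.4 and 76.5 CPM in mutant controls. In WT cells Slc8a1 had 38.4 and 37.6 CPM with doxorubicin against 74.5 and 80.6 CPM in controls, with a log2 fold change of -0.76 ± 0.08 in mutant cells (adjusted p = 8.24e-08) and -1.03 ± 0.08 in WT cells (adjusted p = 6.49e-10). Slc24a6, the sodium-calcium exchanger of mitochondria (Slc8b1 in RefSeq), rose by 1.27 ± 0.23 and 1.28 ± 0.21.

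The Slc12 family, which moves chloride with sodium or potassium and takes part in cell volume control, rose in 5 of its 6 tested members in both genotypes. Slc12a2 (NKCC1) had the most counts, with 482 and 494 CPM in mutant cells with doxorubicin against 427 and 394 CPM in mutant controls. In WT cells Slc12a2 had 500 and 465 CPM with doxorubicin against 408 and 407 CPM in controls, a small change with no overlap (log2 fold change 0.25 ± 0.07 in mutant cells, adjusted p = 0.00301, and 0.24 ± 0.07 in WT cells, adjusted p = 0.00356). The potassium-chloride cotransporters Slc12a4 and Slc12a7 rose by 1.16 ± 0.20 and 0.56 ± 0.22 in mutant cells and by 0.98 ± 0.18 and 0.95 ± 0.21 in WT cells. Slc12a8 rose from few counts, with 39 against 2 in WT cells (ratio 19.1, 4.95 to 164). The sulfate transporters Slc26a2 and Slc26a11 rose as well, Slc26a2 by 1.03 ± 0.19 in mutant and 1.89 ± 0.19 in WT cells and Slc26a11 by 1.81 ± 0.27 and 0.89 ± 0.25. Slc9a2, a sodium-proton exchanger, had 38 counts against 4 in mutant cells (11.1, 3.99 to 42.7) and rose by 1.92 ± 0.53 in WT cells, where the call was lost without control library A (1.54).

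Carriers of mitochondria and peroxisomes held the largest family. Of 34, 2 rose and 2 fell by at least 2-fold, in mutant as in WT cells, against 12.8% higher and 6.5% lower of all genes in mutant cells and 13.3% and 7.52% in WT cells. Slc25a17 had 927 and 967 CPM in mutant cells with doxorubicin against 608 and 594 CPM in mutant controls. In WT cells Slc25a17 had 1044 and 1030 CPM with doxorubicin against 597 and 614 CPM in controls, the largest gain in mean CPM of all members (log2 fold change 0.66 ± 0.06 in mutant cells, adjusted p = 1.28e-08, and 0.78 ± 0.06 in WT cells, adjusted p = 7.57e-10). Slc25a40, a mitochondrial glutathione importer, had 97.7 and 97.1 CPM in mutant cells with doxorubicin against 38.05 and 31.9 CPM in mutant controls. In WT cells Slc25a40 had 97.5 and 89.8 CPM with doxorubicin against 34.1 and 28.7 CPM in controls, and its log2 fold change was 1.48 ± 0.09 in mutant cells (adjusted p = 2.05e-11) and 1.58 ± 0.09 in WT cells (adjusted p = 6.03e-12), with a near-identical copy in Gm5066. Slc25a12 and Slc25a13, the aspartate-glutamate carriers of the malate-aspartate shuttle, both fell. Slc25a12 had 3.84 and 2.49 CPM in mutant cells with doxorubicin against 6.11 and 5.86 CPM in mutant controls. In WT cells Slc25a12 had 2.42 and 3.19 CPM with doxorubicin against 5.87 and 5.61 CPM in controls (log2 fold change -0.92 ± 0.19 in mutant cells, adjusted p = 3.04e-04, and -1.03 ± 0.19 in WT cells, adjusted p = 7.16e-05). Slc25a13 had 3.60 and 3.08 CPM in mutant cells with doxorubicin against 9.06 and 6.81 CPM in mutant controls. In WT cells Slc25a13 had 5.23 and 4.10 CPM with doxorubicin against 11.9 and 10.6 CPM in controls (log2 fold change -1.25 ± 0.18 in mutant cells, adjusted p = 3.46e-06, and -1.27 ± 0.16 in WT cells, adjusted p = 5.11e-07). No treated library of either gene reached a control library of its genotype, which the naming rule required.

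The phosphate carrier Slc25a3, the carnitine carrier Slc25a20 and Slc25a25 rose by 0.41 to 0.88 on the log2 scale in both genotypes. Parts of Slc25a20 are nearly identical to transcripts of 18 other genes, and Naif1 overlaps Slc25a25 on the opposite strand. Reads of Slc25a20 and Slc25a25 may therefore not all be their own. Slc25a42, the CoA carrier, rose from few counts, with 21 against 3 in mutant cells (ratio 8.16, 2.44 to 42.7) and 27 against 4 in WT cells (6.62, 2.31 to 26.1), the WT call being lost without control library B (2.47) or treated library B (2.26). Slc25a24 fell little, with 860 and 883 CPM in mutant cells with doxorubicin against 1020 and 999 CPM in mutant controls. In WT cells Slc25a24 had 887 and 891 CPM with doxorubicin against 1043 and 979 CPM in controls (log2 fold change -0.21 ± 0.06 in mutant cells, adjusted p = 0.00711, and -0.19 ± 0.06 in WT cells, adjusted p = 0.0156), and its WT call was lost without control library A (-0.14). Slc25a46, a protein of the outer membrane, rose little, by 0.22 ± 0.07 and 0.24 ± 0.07, its WT call being lost without control library B (0.22) or treated library A (0.17). The adenine nucleotide carriers stayed close to their controls: Slc25a4 was called lower in WT cells (-0.23 ± 0.07) and missed the threshold in mutant cells (-0.16 ± 0.07, adjusted p = 0.0503), and Slc25a5, which has near-identical copies, was not called in either.

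The Slc35 family includes the nucleotide sugar transporters, which feed glycosylation in the Golgi and endoplasmic reticulum. The class was set by family number, so not every member need carry nucleotide sugars. In mutant cells 13 of 24 rose and 3 fell, against 28.3% higher and 25.9% lower of all genes. In WT cells 12 rose and 3 fell, against 29.3% and 28.1% of all genes, and the difference from all genes was not tested. The 24 members of Slc35 summed to 799 and 830 CPM in mutant cells with doxorubicin against 631 and 585 CPM in mutant controls, and to 963 and 967 CPM in WT cells with doxorubicin against 712 and 650 CPM in WT controls. Slc35a5 supplied much of that sum, with 362 and 378 CPM in mutant cells with doxorubicin against 254 and 232 CPM in mutant controls. In WT cells Slc35a5 had 513 and 506 CPM with doxorubicin against 336 and 292 CPM in controls (log2 fold change 0.60 ± 0.07 in mutant cells, adjusted p = 4.65e-07, and 0.70 ± 0.07 in WT cells, adjusted p = 4.48e-08). Slc35g2 had 17.5 and 26.7 CPM in mutant cells with doxorubicin against 2.20 and 1.76 CPM in mutant controls. In WT cells Slc35g2 had 29.3 and 25.4 CPM with doxorubicin against 3.05 and 2.96 CPM in controls. It rose about 10-fold, with a log2 fold change of 3.48 ± 0.19 in mutant cells (adjusted p = 1.42e-12) and 3.19 ± 0.17 in WT cells (adjusted p = 1.11e-12). Slc35d1, which carries UDP-glucuronic acid for the synthesis of cartilage proteoglycan, had 12 and 11.6 CPM in mutant cells with doxorubicin against 4.08 and 3.63 CPM in mutant controls. In WT cells Slc35d1 had 11.4 and 11.4 CPM with doxorubicin against 5.17 and 4.52 CPM in controls (log2 fold change 1.61 ± 0.14 in mutant cells, adjusted p = 1.81e-09, and 1.24 ± 0.13 in WT cells, adjusted p = 4.33e-08). Slc35d3 and Slc35e3 rose in both genotypes too, by 2.09 ± 0.24 and 1.33 ± 0.16 in mutant and by 1.85 ± 0.25 and 1.25 ± 0.15 in WT cells, and Slc35e3 has near-identical copies. Slc35b4, a carrier of UDP-xylose and UDP-N-acetylglucosamine, fell, with 5.96 and 6.01 CPM in mutant cells with doxorubicin against 10.6 and 10.3 CPM in mutant controls. In WT cells Slc35b4 had 5.76 and 5.98 CPM with doxorubicin against 9.36 and 10.1 CPM in controls (log2 fold change -0.80 ± 0.13 in mutant cells, adjusted p = 1.52e-05, and -0.73 ± 0.12 in WT cells, adjusted p = 3.23e-05).

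Of the lipid-linked members, Slc33a1, the acetyl-CoA transporter of the endoplasmic reticulum, had 189.5 and 205 CPM in mutant cells with doxorubicin against 61.9 and 55.2 CPM in mutant controls. In WT cells Slc33a1 had 215 and 197 CPM with doxorubicin against 61.2 and 61.8 CPM in controls. It rose over 3-fold, with a log2 fold change of 1.75 ± 0.08 in mutant cells (adjusted p = 6.00e-14) and 1.74 ± 0.08 in WT cells (adjusted p = 5.02e-14), and Gm26850 overlaps it on the opposite strand, from which unstranded reads could not be told apart. Slc27a3, of the fatty acid transport family, had 83 counts against 7 in mutant cells (ratio 13.8, 6.42 to 35.5) and rose by 2.95 ± 0.44 in WT cells. Slc10a4 had 11 and 14 counts in mutant and 11 and 18 in WT cells with doxorubicin, against no count in the 4 control libraries. Taking 3 counts per control library as the most a count of 0 allows, it was at least 4.86-fold higher in mutant and at least 4.65-fold higher in WT cells, and a near-identical copy is annotated as Gm5868. The choline transporter-like gene Slc44a2 fell by 0.75 ± 0.11 and 0.62 ± 0.11. The urea transporter Slc14a1 fell by 1.29 ± 0.37 and 0.99 ± 0.32, its WT call being lost without control library A (-0.84) or treated library A (-0.94).

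Phosphate and citrate carriers gave 3 members with 3 outcomes. Slc20a1, a sodium-phosphate cotransporter, had 20.6 and 20.1 CPM in mutant cells with doxorubicin against 41.1 and 38.7 CPM in mutant controls. In WT cells Slc20a1 had 22.2 and 20.97 CPM with doxorubicin against 33.4 and 35.5 CPM in controls, and its log2 fold change was -0.97 ± 0.09 in mutant cells (adjusted p = 6.78e-09) and -0.68 ± 0.09 in WT cells (adjusted p = 9.58e-07). Its relative Slc20a2 was not called (0.22 ± 0.16 and -0.09 ± 0.15). The citrate transporter Slc13a5 rose by 1.44 ± 0.33 and 1.53 ± 0.33 at no more than 1.62 CPM.

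A handful of members were near silent in 1 group and present in another. By the rule of under 3 counts in both libraries of a group and at least 10 in both of another, these were Slc7a15, Slc10a4, Slc12a8, Slc23a3 and Slc25a42, and in each the higher group was a doxorubicin group. Slc7a15 had 54 counts against 2 in mutant cells (ratio 31.5, 8.30 to 267), which libraries A and B shared unequally as 46 and 8, and 32 against 3 in WT cells (10.5, 3.28 to 53.4), where the call was lost without control library B (2.72). Such members entered through the group where they are high, so their direction is in part set by the membership rule.

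Genes that work with the members but carry other names were looked at beside them. Of 16 listed, 12 were tested, and 4 rose and 1 fell in mutant cells, while 3 rose and 3 fell in WT cells. Among all genes 28.3% rose and 25.9% fell in mutant cells, and 29.3% rose and 28.1% fell in WT cells. Basigin (Bsg), the chaperone of Slc16a1 at the membrane, rose by 0.46 ± 0.08 in mutant and 0.40 ± 0.08 in WT cells, opposite to Slc16a1. The sodium pump subunit Atp1b1 fell, with 119.8 and 123 CPM in mutant cells with doxorubicin against 218 and 226 CPM in mutant controls, and 119 and 146 CPM in WT cells with doxorubicin against 240.3 and 241 CPM in WT controls, whereas Atp1b3 rose by 0.43 ± 0.07 and 0.39 ± 0.07.

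The response was then compared between the genotypes. Of the 198 tested members, 105 were called in both genotypes, 29 in 1 genotype and 64 in neither. Of all 12255 genes, 47.7% were called in both, 16.2% in 1 and 36.1% in neither. Of the members called higher, 68 were higher in both (89.5% of the mutant calls and 88.3% of the WT calls), and of those called lower, 37 were lower in both (90.2% and 82.2%). Over all genes the same shares were 87.6% and 84.6% for higher calls and 88.3% and 81.4% for lower calls, close to those of the members. No member was called in opposite directions. The responses come from separate sets of libraries, with controls of their own. The difference of the responses, mutant minus WT, was called for 0 of 198 members by edgeR, DESeq2 and limma-voom, and 11 members had an unadjusted p under 0.05 by edgeR. Over all genes 0.0734% were called. The lowest unadjusted p was that of Slc40a1, whose response was lower in mutant cells by 0.94 ± 0.28 on the log2 scale (adjusted p = 0.419). Next came Slc26a2 (difference -0.86 ± 0.28, adjusted p = 0.514). A missed threshold with 2 libraries per group does not show that the responses were alike. Members called in 1 genotype only, such as Slc35a2, Slc6a6 and Slc6a15 in WT cells, are therefore not shown to respond differently.

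**Figure D4:**
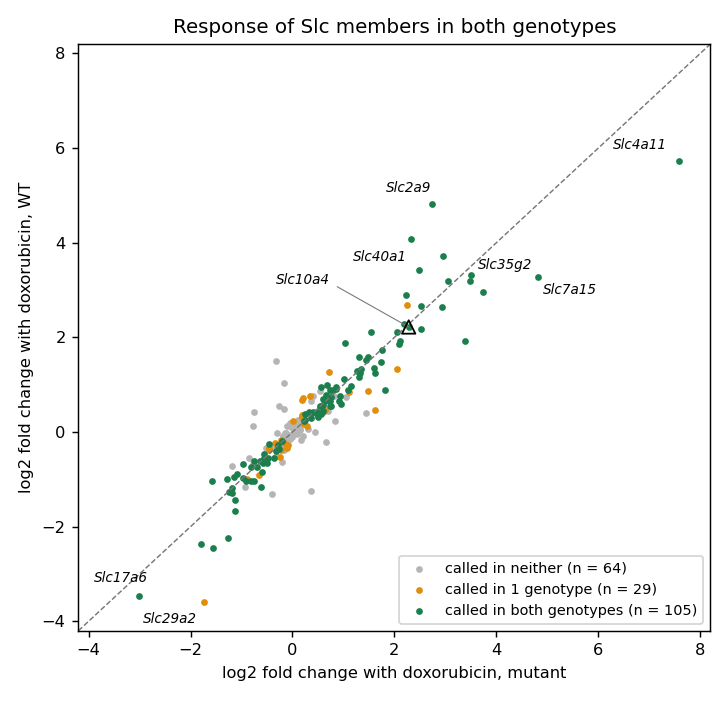
Log2 fold change of doxorubicin over control for the 198 tested members in mutant cells (horizontal) and WT cells (vertical); green points were called in both genotypes, orange points in 1 and grey points in neither, the dashed line marks equal responses, and the open triangle shows Slc10a4 at its lower bound. The green points lie in the upper right or lower left only, and Slc4a11 and Slc2a9 lie away from the line with few counts in their controls.

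Between genotypes few members differed. In cells with doxorubicin 8 of 198 members (4.04%) were called between mutant and WT, 2 higher and 6 lower in mutant cells, against 7.74% of all genes (3.92% higher and 3.82% lower). In control cells 7 members (3.54%) were called, 1 higher and 6 lower, against 5.92% of all genes (2.75% higher and 3.17% lower). Both shares were below those of all genes, and both comparisons rest on cells that differ in sex-linked RNA. Of the 10 members on the X chromosome, 1 was called with doxorubicin, Slc35a2, and 0 without.

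Slc35a5 was lower in mutant cells in both conditions, at 362 and 378 CPM in mutant against 513 and 506 CPM in WT cells with doxorubicin (log2 fold change -0.46 ± 0.07, adjusted p = 2.11e-04), and at 254 and 232 CPM in mutant against 336 and 292 CPM in WT control cells (log2 fold change -0.37 ± 0.07, adjusted p = 0.00256). Slc1a3, the glutamate transporter GLAST, was lower too, at 27.2 and 29.6 CPM against 44.7 and 40.1 CPM with doxorubicin (log2 fold change -0.58 ± 0.10, adjusted p = 3.35e-04), and at 41.1 and 37.3 CPM against 54.2 and 46.8 CPM in controls (log2 fold change -0.36 ± 0.09, adjusted p = 0.0189). Slc30a4, a zinc exporter, had 68.5 and 63.4 CPM in mutant against 82.7 and 79.3 CPM in WT cells with doxorubicin (log2 fold change -0.30 ± 0.08, adjusted p = 0.018), and 83.3 and 77.0 CPM against 100.4 and 95.5 CPM in controls (log2 fold change -0.29 ± 0.08, adjusted p = 0.0232). The 2 comparisons use different libraries. Members were named for their largest changes only where the libraries did not overlap, so that the lack of overlap in such members supports nothing.

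With doxorubicin alone, Slc40a1 was lower in mutant cells (log2 fold change -0.89 ± 0.14, adjusted p = 2.57e-04), with the libraries given above, and its controls were 1.48 and 1.80 CPM in mutant against 1.34 and 1.79 CPM in WT cells. Slc7a2 (log2 fold change -0.52 ± 0.15, adjusted p = 0.0373) and the UDP-galactose transporter Slc35a2 (log2 fold change -0.46 ± 0.14, adjusted p = 0.0396) were lower, and Slc8a1 (log2 fold change 0.30 ± 0.08, adjusted p = 0.0312) and the rare Slc35e4 (log2 fold change 0.74 ± 0.22, adjusted p = 0.0442) higher. Of the tested macrophage markers, Csf1r alone was called between genotypes with doxorubicin, higher in mutant cells (log2 fold change 1.01 ± 0.25). Ptprc alone was called in controls, also higher in mutant cells (0.67 ± 0.18). The part of these markers in the Slc40a1 difference was not tested. In controls alone, Slc4a4 (log2 fold change -0.36 ± 0.10, adjusted p = 0.0287), Slc25a13 (log2 fold change -0.50 ± 0.15, adjusted p = 0.0486) and the glucose-6-phosphate transporter Slc37a4 (log2 fold change -0.60 ± 0.17, adjusted p = 0.0463) were lower, and Slc6a15, a neutral amino acid transporter, higher (log2 fold change 0.64 ± 0.18, adjusted p = 0.0307). These calls depended on the processing and on single libraries. DESeq2 did not call Slc25a13 in controls (adjusted p = 0.163), nor Slc7a2 (0.0739) and Slc35a2 (0.135) with doxorubicin. The call of Slc25a13 was also lost with DESeq2 size factors (adjusted p = 0.0510), with upper-quartile factors (0.0622) and with the filter of 5 CPM (0.0546), and those of Slc8a1 (0.0712) and Slc35a2 (0.0611) in the edgeR fit of only the 4 libraries compared. In controls, 0 members were called without mutant control library B or without WT control library A, 2 without mutant control library A and 3 without WT control library B. Slc35a5, Slc1a3, Slc30a4, Slc4a4 and Slc25a13 had log2 fold changes of -0.30, -0.29, -0.23, -0.30 and -0.31 without mutant control library B, and of -0.27, -0.26, -0.26, -0.28 and -0.43 without WT control library A. With doxorubicin, 4 were called without mutant doxorubicin library A, 5 without mutant control library A, 3 without WT doxorubicin library A and 12 without WT doxorubicin library B. Slc35a5, Slc1a3 and Slc40a1 kept their calls with doxorubicin under every alternative tried. Without WT doxorubicin library A the calls of Slc30a4 (-0.27), Slc7a2 (-0.28), Slc8a1 (0.31) and Slc35a2 (-0.44) were lost, and without mutant doxorubicin library A those of Slc7a2 (-0.43), Slc8a1 (0.21) and Slc35a2 (-0.45).

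**Figure D5:**
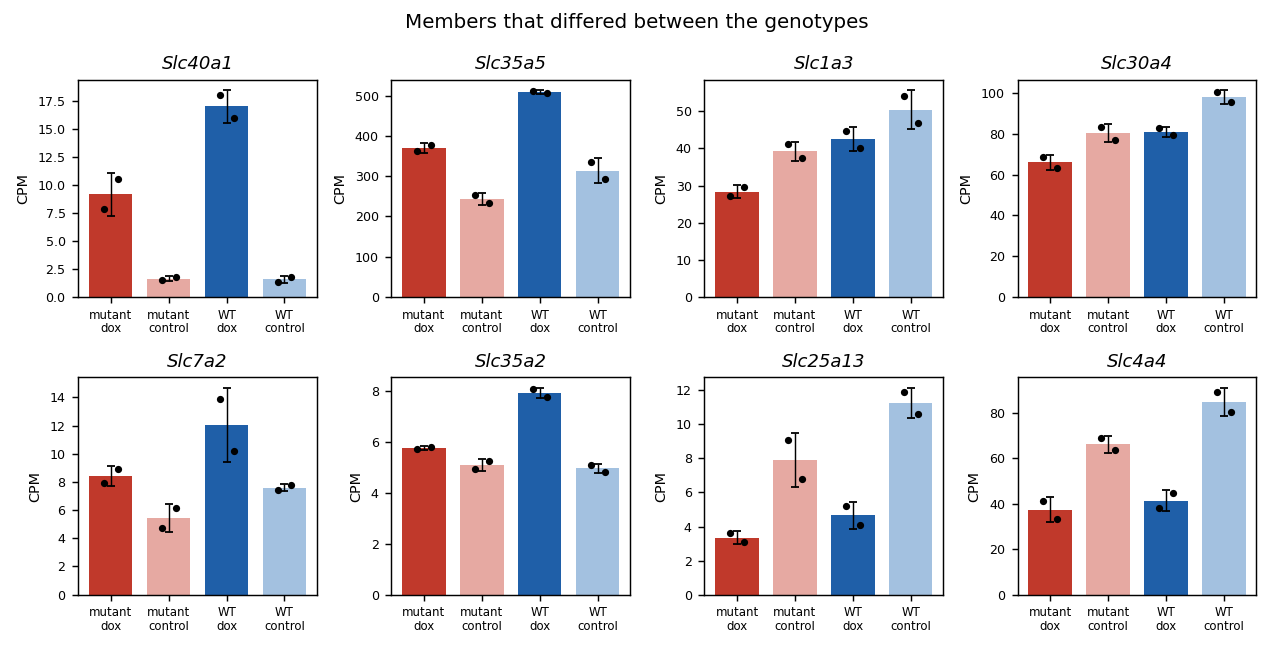
CPM of members called between mutant and WT cells, 1 panel each, with groups in the order mutant with doxorubicin, mutant control, WT with doxorubicin and WT control; bars are means, error bars SD (n = 2) and points the libraries. Slc35a5, Slc1a3 and Slc30a4 lie lower in mutant than in WT cells in both conditions, and Slc40a1 lies lower in mutant cells with doxorubicin only.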

How the data were processed

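The table holds counts per gene symbol in 8 libraries, 1 column each, which the authors deposited without normalization; per the submitters' processing notes, mm9, Bowtie2 and HTSeq were used. Annotation, strand setting and the handling of reads with several matches are not given in the sources used here. Members are therefore uncertain where an exon overlaps another gene (50 members) or a transcript matches one of another gene (40 members). A match was at least 95% identity over 200 bases (minimap2 2.31). Many of the 40 match only the gene that overlaps them, so these sets share members. The labels name both a TruSeq RNA Access kit and 3' sequencing, which was not resolved. A count of 0 allows up to 3 counts, or 0.0880 to 0.120 CPM.

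Counts were fitted in R 4.3.3 with edgeR 4.0.16 on the whole table: filterByExpr (minimum count 10, total 15) left 12255 genes, TMM factors scaled libraries, and 1 quasi-likelihood model had 1 coefficient per group (4 residual degrees of freedom, biological coefficient of variation 0.0636). P-values are two-sided, with Benjamini-Hochberg adjustment across the 12255 genes, and calls under 0.05. SEs are the log2 fold change divided by the square root of F. The pipeline was tested on simulated data. The chi-square of A against B counts over its degrees of freedom was 5.34 in mutant cells with doxorubicin, 5.52 in mutant controls, 17.3 in WT cells with doxorubicin and 6.09 in WT controls, above the value near 1 that counting error alone gives.

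Members, lists and the naming rule were chosen with earlier results of these data known. Named were the 10 members with most counts; per doxorubicin comparison and direction the 10 largest called changes, and per genotype comparison the 6 largest, at a mean of at least 4 CPM with no overlap; up to 4 called members per substrate class; members near silent in 1 group; the fixed lists; and partner genes. Other members named were picked after their values were seen, for their family or role. Substrate classes follow the family number. RefSeq GRCm38.p6 and GENCODE M21 served for names, lengths, overlaps and promoters (200 members matched, 1 by an older symbol); no gene coordinates of the mm9 table are given. Alternatives were DESeq2 size factors, upper-quartile factors, DESeq2 1.42.0, limma-voom 3.58.1, other filters, an adjusted p under 0.10, a letter term, fits of 4 libraries, and fits lacking 1 library.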

Additional observations from a re-analysis of the deposited data

How the results depend on the processing

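With a filter of 5 CPM in 2 libraries, which leaves 100 members to test, 76 members were called in the WT response, 72 in the mutant response, 82 in the average response (whose alternatives were added after seeing the data) and 4 between genotypes in controls. Between genotypes in controls DESeq2 called 4 and the table without a filter 11. With doxorubicin, a fit of only the 4 libraries compared called 5 between genotypes. Leaving out 1 library at a time, where the lone library of a group is assumed to vary like the other groups, called 95 to 120 in the mutant response, 105 to 123 in the WT response, 133 to 141 on average, 0 to 0 in their difference, 0 to 9 between genotypes in controls and 3 to 12 with doxorubicin. Correlations of A minus B between groups, over all genes tested, ran from -0.0549 to 0.103. The highest was between mutant controls and mutant cells with doxorubicin. These differences hold counting noise, so the correlations cannot show whether the letters pair the samples. With the letter as a replicate block, 117 members were called in the mutant response, 123 in the WT response, 142 on average, 0 in the difference, 6 between genotypes in controls and 9 with doxorubicin. Of 1557 recomputed values of named members, 1487 kept direction and side of the threshold, 64 no longer passed it, 6 newly passed it and 0 turned round. Of 88 called values, 70 kept the call throughout. Other scalings shifted the median of all genes by at most 0.0557 on the log2 scale. The causes were not tested. DESeq2 did not call Slc38a4, Slc6a14, Slc14a1 and Slc6a9 in WT cells, Slc7a2 and Slc35a2 between genotypes with doxorubicin, and Slc25a13 between genotypes in controls. Of these, Slc38a4 is among the 10 members with most counts, while Slc6a14, at a mean of 0.204 CPM, has few.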
